A study of Mus musculus with 11 samples.

Results

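Acetylation of histone H3 at lysine 27 (H3K27ac), which marks promoters and enhancers in use, was higher at 5 regions beside 4 axon guidance genes in atrial cardiomyocyte nuclei of *Tbx5*G125R/+ mice. The genes were *Slit2* and *Ntn4*, which encode secreted ligands, and *Robo1* and *Robo2*, which encode receptors. The 5 regions were chosen by the authors' test of H3K27ac between the genotypes, as part of the 1652 regions deposited as differentially acetylated, and by position. A region was taken when the midpoint of its most significant bin lay in, or no more than 100 kb from, the body of 1 of the 4 genes and that gene was the nearest protein-coding gene. *Robo2* had 2 such regions and the other genes 1 each. Every region listed had thus already been selected for a difference between the genotypes, and the levels below describe its size and spread and carry no test.

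The mark was profiled by CUT&RUN, in which an antibody tethers a nuclease that cuts out the marked chromatin, in 6 libraries of *Tbx5*G125R/+ and 5 of control mice. *Tbx5*G125R/+ mice were made with CRISPR-Cas9 and carry, on 1 allele, a glycine to arginine change in the T-box of the transcription factor Tbx5, and controls are labelled only as such. All mice were 8 to 12 weeks old. Left and right atria were pooled, and nuclei were sorted for PCM1, a protein of the cardiomyocyte nuclear envelope, so the atria cannot be told apart. In such pooled nuclei, fewer cells of a type and a weaker mark per cell cannot be told apart either. Reads in the listed bins numbered 27118 to 72442 per control library and 43183 to 161738 per *Tbx5*G125R/+ library. These totals do not measure depth alone, since 81.1% of the listed bins had a higher mean in *Tbx5*G125R/+. Levels are normalised reads, that is, reads of the most significant 500 bp bin (the top bin) divided by 1 size factor per library. The control factors were 0.513 to 1.47, the *Tbx5*G125R/+ factors 0.457 to 2.04. Libraries are called deep or shallow below by this factor. *Tbx5*G125R/+ replicates 4 (0.969) and 5 (0.457) thus had factors within or below the control range.

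Slits are large secreted proteins that bind Robo receptors and repel growing axons and migrating cells. In the developing mouse heart, Slit and Robo signalling takes part in the formation of the pericardium, the systemic veins, the septa and the valves. Netrins are laminin-related guidance cues, and netrin 4, the product of *Ntn4*, is a component of basement membranes that binds laminin and can disrupt laminin networks. H3K27ac beside a gene marks regulatory DNA and does not by itself measure transcription of that gene.

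The region at *Slit2* was the 1 of the 5 that spanned an annotated promoter. The sequences that bear on it are shown in RefSeq's GRCm38.p6 (mm10), 5′ to 3′. The first gives the 250 bases before the *Slit2* start site, at chr5:47982905-47983154 on the plus strand, with matches to the SP GC box (GGGCGG) and to the TATA box (TATAAA) in capitals. The second is the mature miR-218-5p, whose gene *Mir218-1* (chr5:48223942-48224051, plus strand) lies within the *Slit2* gene body, with its seed (bases 2 to 8) in capitals. It is shown because *Slit2* is a host gene of miR-218, a microRNA known to repress *Robo1* and *Robo2*.
Slit2 promoter: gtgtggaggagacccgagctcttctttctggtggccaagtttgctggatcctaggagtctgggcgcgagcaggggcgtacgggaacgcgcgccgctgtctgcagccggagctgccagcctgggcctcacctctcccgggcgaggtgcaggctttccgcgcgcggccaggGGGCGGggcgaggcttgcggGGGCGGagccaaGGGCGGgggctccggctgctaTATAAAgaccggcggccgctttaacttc
mmu-miR-218-5p: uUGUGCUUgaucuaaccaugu

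This promoter was rich in CpG. It held 25 CpG dinucleotides at a GC content of 69.6%, against medians of 6 and 52.4% over 32851 promoter windows of the same length, and 89.3% of these windows held fewer CpGs. The GC box occurred 3 times, starting 81, 61 and 49 bases before the start site, and 32.7% of all windows held at least 1. A TATA box, searched for after the sequence had been seen, began 28 bases before the start site, and 12.4% of all windows held one. The core of the T-box motif (GGTGTG), present in 16.3% of all windows, had no match here on either strand. Nor had the motifs for GATA factors (GATAA, 22.6% of windows), NKX factors (AAGTG, 40.7%), TEAD factors (GGAATG, 12.6%), KLF factors (CACCC, 52.0%) and MEF2 (CTANNNNTAG, 3.20%). The authors name the motifs of KLF and SP factors together, so the lack of CACCC does not mean that sites for KLF factors are absent. None of these motifs was searched in the acetylated bins themselves, whose sequence was not analysed here.

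Of the secreted ligands, *Slit2* had the stronger mark in *Tbx5*G125R/+ nuclei. Its region, on chromosome 5 from 47982501 to 47988750, was 6250 bp wide and covered the start site at 47983155. The top bin, from 47984501 to 47985000, lay within the gene body, its midpoint 1.595 kb downstream of that start site. In controls the bin held 0 reads in 4 libraries and 6 reads in replicate 4, which gave a level of 8.31 normalised reads. *Tbx5*G125R/+ replicates 1 to 6 stood at 49.4, 89.9, 61.1, 46.4, 45.9 and 33.4. All 6 lay above every control, and the lowest of them was replicate 6. The control mean was 1.66 ± 3.72 (SD, n = 5) and the *Tbx5*G125R/+ mean was 54.4 ± 19.5 (SD, n = 6). From the pooled reads of each genotype, 6 against 490, the ratio was 42.1 (95% exact counting interval 19.2 to 115). Such intervals cover the counting error of pooled reads only and leave out the spread between libraries. Even the counting error may be larger, since copies made by amplification are not independent molecules. Control replicate 4 carried all control reads, and without it the *Tbx5*G125R/+ level was at least 70.8-fold higher, taking 3 reads over the remaining controls as the floor. The control left out, here and at the genes below, was the one with most reads. Leaving it out lowers the control level by construction and is no sign of a larger gain.

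*Ntn4* had a narrow and weak region far inside the gene. The region lay on chromosome 10 from 93700501 to 93701500, 1000 bp wide, with its top bin from 93701001 to 93701500. The bin's midpoint was 60.2 kb downstream of the *Ntn4* start site in a gene of 104.924 kb. The control libraries held 1 read together, in replicate 3 (1.12 normalised reads). *Tbx5*G125R/+ replicates 1 to 6 stood at 16.6, 6.70, 36.2, 23.7, 17.5 and 24.0. The libraries of the 2 genotypes did not overlap, although replicate 2 was low for its genotype, with 12 reads. The control mean was 0.225 ± 0.503 (SD, n = 5) and the *Tbx5*G125R/+ mean was 20.8 ± 9.82 (SD, n = 6), and the pooled ratio of 93.4 had a wide counting interval of 16.6 to 3709. Without control replicate 3 the *Tbx5*G125R/+ level was at least 25.0-fold higher.

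Of the receptor genes, *Robo1* had the highest level of all 5 regions in both genotypes. Its region, on chromosome 16 from 71943501 to 71947250, lay outside the gene, 83.8 kb before the outermost annotated 5′ end. The start site in the promoter table was 719 kb away. The top bin (71943501 to 71944000) held 6 reads in control replicate 1 and 37 in control replicate 2, that is 6.39 and 25.2 normalised reads, and none in the other control libraries. *Tbx5*G125R/+ replicates 1 to 6 stood at 68.0, 58.7, 81.7, 150, 144 and 94.4, all above the highest control. The highest 2 of these libraries were replicates 4 and 5, the shallowest of their genotype. The control mean was 6.32 ± 10.9 (SD, n = 5) and the *Tbx5*G125R/+ mean was 99.5 ± 38.8 (SD, n = 6), a pooled ratio of 9.20 (6.77 to 12.8). It was the smallest ratio of the 4 that could be given with an interval. Without control replicate 2, the deepest control, it became 44.6. With TMM factors, computed on the listed bins, *Robo1* overlapped between the genotypes (highest control 54.1, lowest *Tbx5*G125R/+ 38.9).

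*Robo2*, the other receptor, had a pair of regions close together beyond the 3′ end of the gene. On chromosome 16, region 1 ran from 73874751 to 73876250 and region 2 from 73877751 to 73878500, with a gap of 1.5 kb. *Robo2* lies on the minus strand, so both were past its 3′ end, by 16.7 and 14.0 kb. They fell in the 844 kb between the 3′ ends of *Robo1* and *Robo2*, which are transcribed towards each other. In the top bin of region 1 (73875001 to 73875500) the controls held 1 read, in replicate 3 (1.12 normalised reads). *Tbx5*G125R/+ replicates 1 to 6 stood at 34.7, 72.1, 39.9, 112, 26.3 and 98.1. The spread among these libraries was wide, at 4.29-fold from the lowest to the highest, and none overlapped the controls. The control mean was 0.225 ± 0.503 (SD, n = 5) and the *Tbx5*G125R/+ mean was 63.9 ± 35.9 (SD, n = 6), with 1 against 573 pooled reads and a ratio of 296 (52.8 to 11697). Without control replicate 3 the *Tbx5*G125R/+ level was at least 79.2-fold higher.

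Region 2 of *Robo2* was empty in all controls. Its top bin (73877751 to 73878250) held no read in the 5 control libraries, which allows a level of up to 0.662 normalised reads over the group. *Tbx5*G125R/+ replicates 1 to 6 stood at 15.7, 27.4, 29.3, 12.4, 0 and 26.1. Replicate 5, the shallowest library of its genotype, thus overlapped the controls. Its 0 reads allow a level of up to 6.56, below the 12.4 of the next lowest library, and at the level of the other 5 libraries it would have held 10.4 reads. The *Tbx5*G125R/+ level was 18.5 ± 11.3 (SD, n = 6), and the pooled level was at least 32.7-fold higher than the control floor. Replicate 5 was also the lowest library of region 1, whereas it was among the highest at *Robo1*.

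**Figure D1:**
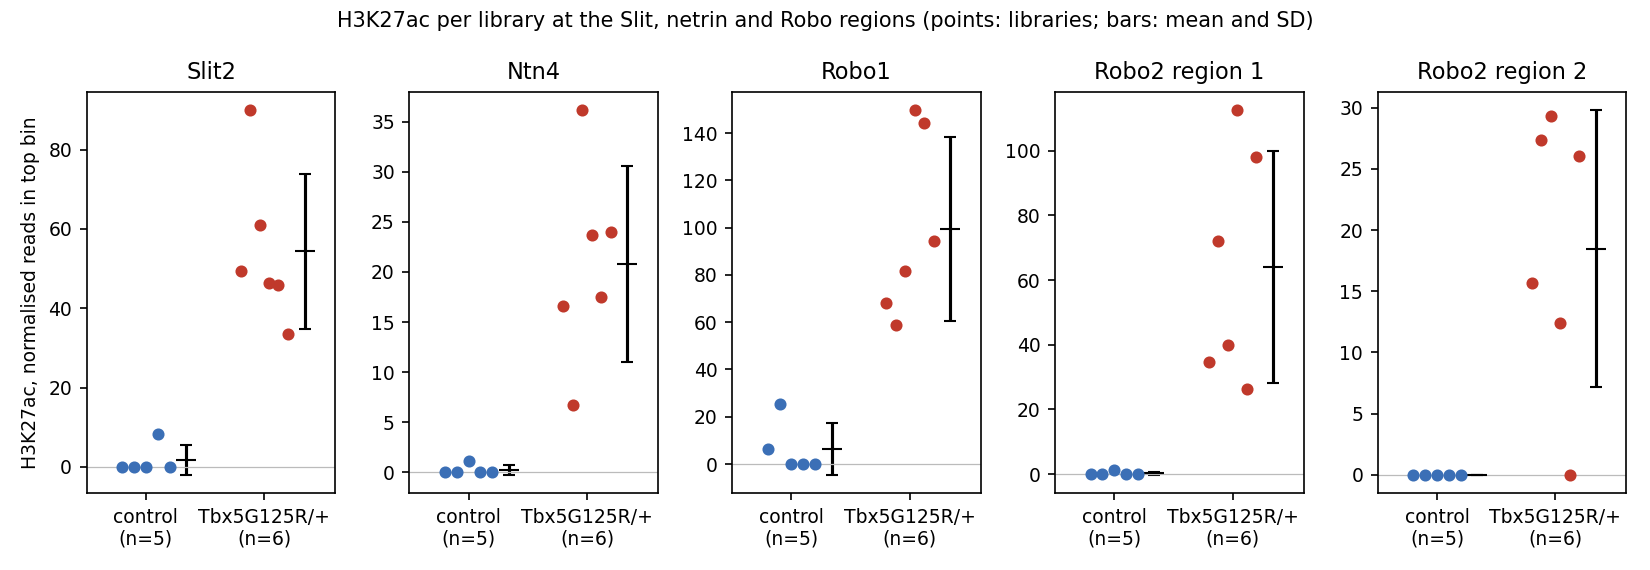
H3K27ac in the top bin (y axis, normalised reads, a scale for each panel) of the 5 regions in control (blue) and *Tbx5*G125R/+ (red) libraries. Points are libraries in the order of their replicate number, and black bars give the mean and SD (n = 5 and n = 6). All *Tbx5*G125R/+ points lie above the control points except replicate 5 at region 2 of *Robo2*, which is at 0.

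The mean was higher in *Tbx5*G125R/+ in 5 of the 5 regions, and it was higher in 81.1% of all listed top bins. The genotypes did not overlap in 4 of the 5 regions, with *Tbx5*G125R/+ higher, against 73.2% of all listed top bins. In edgeR's quasi-likelihood fit over all listed bins, 5 of the 5 were called higher, against 74.0% of all listed top bins. The listed regions were chosen in this same contrast, so nothing about the 5 regions is read from these counts. Scaling matters here: TMM factors computed on the listed bins shifted the median log2 fold of all of them by -1.70. With them 5 of 5 means stayed higher (76.6% of all listed bins), and 3 of the 5 regions had every *Tbx5*G125R/+ value above the controls, against 18.6% of all listed bins. In the edgeR fit with the deposited size factors, log2 folds were 5.14 ± 0.83 (SE) for *Slit2*, 6.00 ± 0.98 for *Ntn4* and 3.70 ± 0.62 for *Robo1*. They were 7.62 ± 0.90 for region 1 of *Robo2* and 7.54 ± 1.24 for region 2 of *Robo2*. Each SE was taken as the fold over the square root of its F statistic. At *Ntn4* and at both *Robo2* regions, where controls held 0 or 1 read, the size of the fold depends on the small prior count of the fit and is no bound.

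By the deposited size factors, the control libraries would have held reads at such levels. At the pooled *Tbx5*G125R/+ level, the control libraries together would have held 253 reads at *Slit2*, 93.4 at *Ntn4*, 396 at *Robo1*, 296 at region 1 of *Robo2* and 98.0 at region 2 of *Robo2*. They held 6, 1, 43, 1 and 0. Even the shallowest control library would have held 10.6 reads at *Ntn4*, the lowest of the 5 values. Expected reads were not computed with TMM factors, which lower the folds. The levels used come from bins chosen for a difference between the genotypes.

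The 5 regions differed among themselves in strength and position. In *Tbx5*G125R/+ the pooled levels were in the order *Robo1* (87.3), *Robo2* region 1 (65.3), *Slit2* (55.8), *Robo2* region 2 (21.6) and *Ntn4* (20.6 normalised reads). The libraries of neighbours in this order overlapped, except that every *Slit2* value (33.4 to 89.9) lay above every value of *Robo2* region 2 (0 to 29.3). Among the 1339 listed bins with a higher mean in *Tbx5*G125R/+, whose median level there was 30.5 normalised reads (interquartile range 21.2 to 54.2), *Robo1* lay above 89.5%, *Robo2* region 1 above 80.0%, *Slit2* above 75.1%, *Ntn4* above 23.3% and *Robo2* region 2 above 13.3%. Among the same bins, whose median control level was 2.27 normalised reads, the control mean of *Robo1* lay above 73.3%, that of *Slit2* above 40.5%, those of *Ntn4* and *Robo2* region 1 above 9.86% each, and *Robo2* region 2 was at 0. At most 1 control read was found in 3 of the 5 regions, and in 154 of these 1339 bins (11.5%). The coefficient of variation among *Tbx5*G125R/+ libraries ran from 35.9% at *Slit2* to 61.3% at *Robo2* region 2, around the median of 42.7% for all gains.

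**Figure D2:**
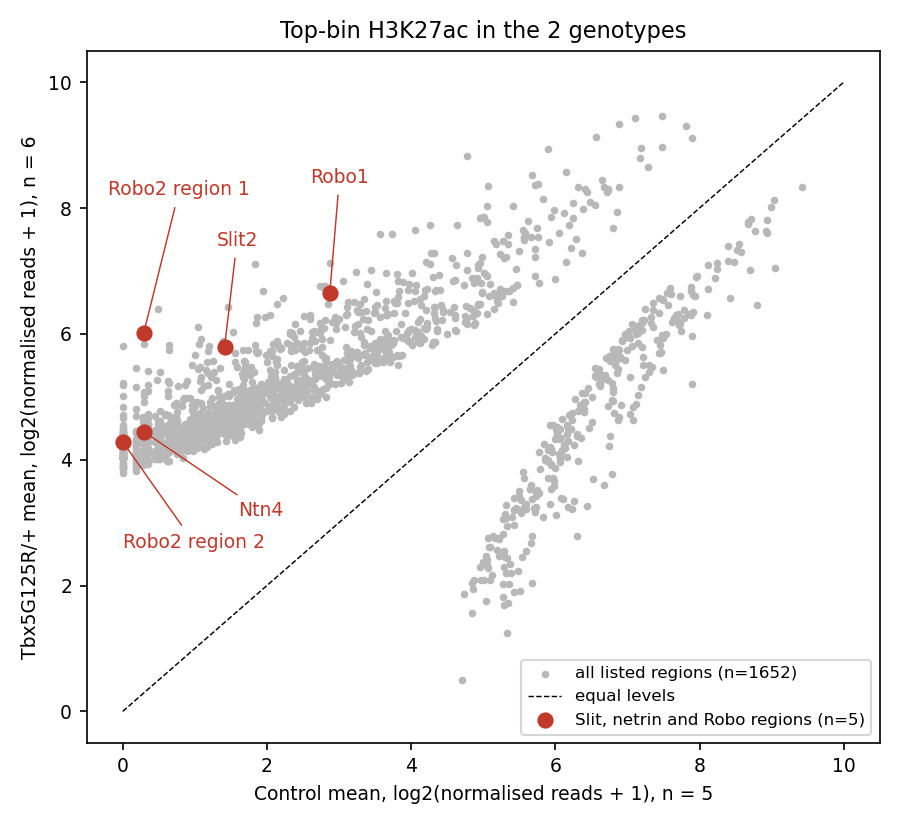
Mean top-bin level in controls (x axis, n = 5) and in *Tbx5*G125R/+ (y axis, n = 6), both as log2 of normalised reads plus 1, for all 1652 listed regions (grey) and the 5 guidance gene regions (red). The dashed line marks equal levels. All 5 red points lie above it, and *Robo1* is the farthest right of them, the others holding 0 to 6 control reads.

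Only 2 of the 5 regions, those of *Slit2* and *Ntn4*, lay inside a gene body, whereas 63.1% of all listed regions did. The bodies of *Robo1* (1020 kb) and *Robo2* (1555 kb) held no listed region. Over all protein-coding gene bodies there were 1.01 listed regions per megabase. Those of the 4 genes together held 2 over 3.01 megabases, or 0.665 per megabase. A promoter window was covered by 1 of the 5 regions, that of *Slit2*, and by 16.6% of the 1586 listed regions on chromosomes with such windows. The regions were 750 to 6250 bp wide, against a median of 2500 bp for gains. Whether the bins lie in exons or introns was not analysed here.

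**Figure D3:**
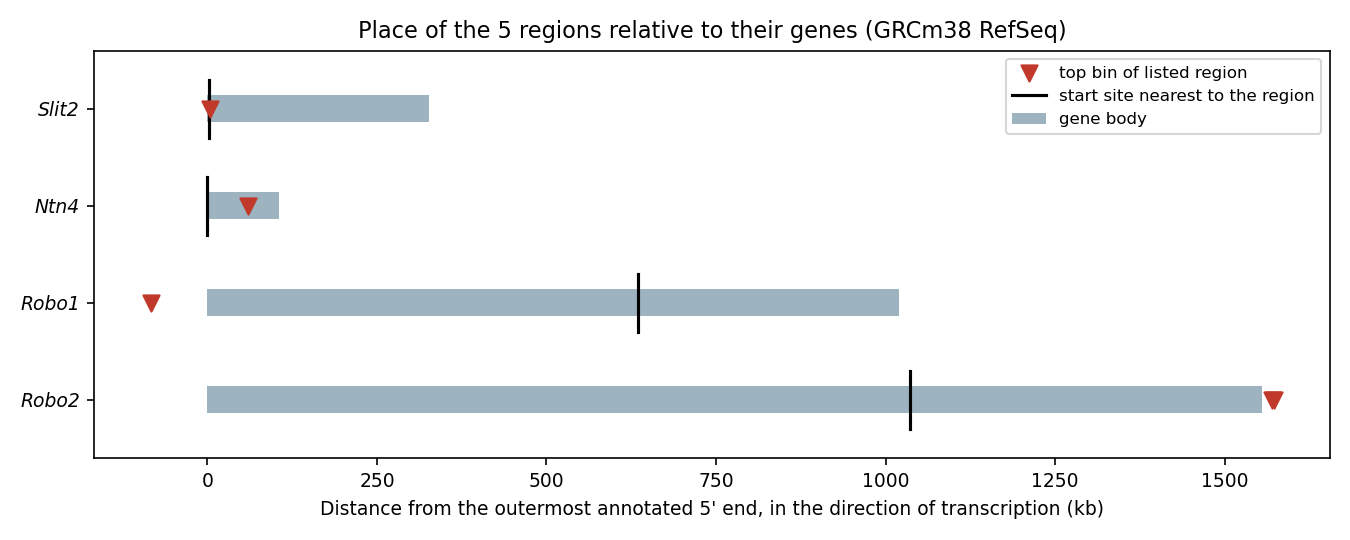
Position of the top bins (red triangles) along each gene, as distance in kb from the outermost annotated 5′ end in the direction of transcription. Grey bars are gene bodies and black lines the annotated start site nearest to the region. The *Slit2* bin is next to its start site, the *Ntn4* bin is inside the gene, the *Robo1* bin lies 83.8 kb before the gene and the 2 *Robo2* bins, drawn over each other, lie beyond its 3′ end.

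The limit of 100 kb kept the *Robo1* region in, at 83.8 kb, as the member farthest from its gene. It left out 1 region whose nearest protein-coding gene was also a member, on chromosome 5 from 47396001 to 47399500, 585 kb before *Slit2*. That region had a control mean of 1.47 ± 2.33 (SD, n = 5) and a *Tbx5*G125R/+ mean of 20.9 ± 11.9 (SD, n = 6), and its libraries overlapped.

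No single library led all 5 regions. The highest *Tbx5*G125R/+ library was replicate 2 at *Slit2*, replicate 3 at *Ntn4* and at region 2 of *Robo2*, and replicate 4 at *Robo1* and at region 1 of *Robo2*. Summed over the 5 regions, controls ranged from 0 (replicate 5) to 25.2 (replicate 2) normalised reads and *Tbx5*G125R/+ libraries from 184 (replicate 1) to 345 (replicate 4). The sums of the 2 genotypes did not overlap. Nor did the sums over all listed bins (controls 46915.5 to 52882.5, *Tbx5*G125R/+ 79119.7 to 94470.7 normalised reads). With TMM factors the direction of the sums over all listed bins was reversed (controls 96741.8 to 108861, *Tbx5*G125R/+ 49209.9 to 53866.9). The sums over the 5 regions stayed higher in *Tbx5*G125R/+ with them (controls 0 to 54.1, *Tbx5*G125R/+ 122 to 210). Among the 6 *Tbx5*G125R/+ libraries, the 2 *Robo2* regions, which lie 2.75 kb apart, had a Pearson correlation of 0.554 on the log2 scale, and *Robo1* and region 2 of *Robo2* one of -0.655. With 6 libraries and few reads in the shallow ones these values are a description only.

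The listed regions most like each member across the 11 libraries lay at genes of diverse function. Likeness was the Pearson correlation of log2 levels, which all listed gains share in part because they differ between the genotypes. For *Slit2* the closest were *Greb1l* (r = 0.987), *Nckap5l* and *Gli2*, a transcription factor of hedgehog signalling. For *Ntn4* they were *Plxdc2* (r = 0.983), the transcriptional coactivator gene *Eya2* and *Mgp*, which encodes matrix Gla protein. For *Robo1* they were *Dnm3*, which encodes a dynamin (r = 0.993), *Spdya* and the phosphatase gene *Dusp4*. Region 1 of *Robo2* was closest to *Gpm6b* (r = 0.988), *Dph7* and *Cyria*, and region 2 to the potassium channel gene *Kcnt2* (r = 0.995), *Hps5* and *Obi1*.

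Within the wider Slit, Robo and netrin family, the 4 genes were the ones with a listed region. Of 22 family members, the other 18 had none, among them the ligand genes *Slit1*, *Slit3* and *Ntn1* and the netrin receptor genes *Dcc*, *Neo1*, *Unc5b* and *Unc5c*. Regions that had not passed the authors' threshold were not analysed here, so these genes may still carry the mark. The share of all protein-coding genes with a listed region was not computed. The counts of genes with a listed region, here and in the lists below, are thus not read as many or few. Of 33 partners and effectors, 7 had 1 listed region each, 4 with a higher and 3 with a lower mean in *Tbx5*G125R/+, a share of 57.1% higher beside 81.1% over all listed regions. The median log2 ratio of means, with 1 added to each, was 3.04 for these 7, 4.28 for the 5 family regions and 2.99 over all listed regions. These sets are not alike, since the 5 family regions are all gains. Of the 7 partner regions 3, and of all listed regions 313, had a lower mean.

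The 4 partners with higher signal in *Tbx5*G125R/+ were *Srgap1*, *Srgap2*, *Lama2* and *Lamb1*. *Srgap1* and *Srgap2* encode GTPase activating proteins that act downstream of Robo receptors. At *Srgap1* controls ranged from 0 to 3.41 (median 2.13) and *Tbx5*G125R/+ from 16.5 to 34.6 (median 20.7) normalised reads, and at *Srgap2* the ranges were 0 to 6.39 (median 1.36) and 25.8 to 69.2 (median 40.5). At *Lama2*, which encodes a laminin alpha chain, controls ranged from 0 to 0.681 and *Tbx5*G125R/+ from 12.8 to 34.9. A region 73.6 kb from *Lamb1*, a laminin beta chain gene, ranged from 0 to 2.77 and from 8.81 to 23.1. The genotypes did not overlap at any of these 4, nor at 1209 of the 1339 listed bins with a higher mean in *Tbx5*G125R/+.

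The 3 partner genes with lower signal were *Abl1*, *Dag1* and *Itga6*. *Abl1* encodes a tyrosine kinase that binds Robo receptors, and its region had a control mean of 90.8 ± 65.7 (SD, n = 5) and a *Tbx5*G125R/+ mean of 12.0 ± 9.27 (SD, n = 6). *Dag1* encodes dystroglycan, a laminin receptor that also binds Slits, and its region, 10.5 kb from the gene, was at 208 ± 50.2 and 79.0 ± 27.7. *Itga6*, a laminin-binding integrin subunit, was at 33.0 ± 15.2 and 5.12 ± 3.84. The genotypes did not overlap at any of the 3 either, nor at 250 of the 313 listed bins with a lower mean. All 3 were acetylated in every control library, unlike the 5 family regions. A region listed with a loss must have signal in controls to lose, so this contrast follows from the direction and sets no gene apart.

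Guidance genes of other families were also listed with gains. Of 26 semaphorin, plexin, neuropilin and ephrin genes, 8 had 9 listed regions, all with a higher mean in *Tbx5*G125R/+ except that *Sema6a* was lower with TMM factors. Over all listed top bins the share with a higher mean was 81.1%, and 76.6% with TMM factors. Their summed level per library was 127 to 235 (controls) and 801 to 1175 (*Tbx5*G125R/+). *Sema3a*, a secreted semaphorin, was at 46.4 ± 29.1 (SD, n = 5) and 185 ± 80.3 (SD, n = 6), and *Nrp2*, a receptor of such ligands, at 9.18 ± 6.91 and 92.6 ± 24.1. Mean control levels were 38.0 to 48.3 at *Sema3a*, *Sema5a*, *Sema6a* and *Plxna2*, and 0.675 to 9.18 at the other 5 regions (*Sema6d*, which had 2, *Plxna4*, *Nrp1* and *Nrp2*), a range that takes in *Slit2* and *Robo1*.

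Most listed regions in, or no more than 100 kb from, markers of other atrial cell types had a higher mean in *Tbx5*G125R/+, as did 81.1% of all listed top bins. Of 8 fibroblast markers, 5 (*Pdgfra*, *Col1a2*, *Dcn*, *Lum* and *Postn*) had 7 listed regions, all higher, with a summed level of 9.75 to 66.5 (controls) and 279 to 477 (*Tbx5*G125R/+). The *Dcn* regions lay 97.25 and 40 kb from the gene and the *Postn* region 89.7 kb, the other fibroblast regions 0 to 9.05 kb. Of 8 endothelial markers, 3 had listed regions. *Kdr* and *Cdh5* had 6 higher regions, of which 2 at *Kdr* were lower with TMM factors, and *Erg* had 1 lower region, and the sum was 164 to 408 (controls) and 594 to 871 (*Tbx5*G125R/+). The *Kdr* regions with the highest levels lay 58.1 and 31.8 kb from the gene, the other endothelial regions 0 to 3.36 kb. The 1 mural marker listed, *Rgs5* of 7, was at 0 to 1.38 (controls) and 2.19 to 28.9 (*Tbx5*G125R/+), *Mbp* was the 1 of 4 Schwann cell and nerve markers with regions (2, both higher), and none of 4 epicardial or 5 immune markers was listed. Of 10 cardiomyocyte markers, *Ryr2*, *Actc1* and *Actn2* had 4 regions, all lower, with a sum of 756 to 1134 (controls) and 280 to 367 (*Tbx5*G125R/+). The *Actc1* region lay 19.9 kb from its gene, the others inside theirs. The sums of the fibroblast, endothelial and cardiomyocyte lists did not overlap between the genotypes, but those of the endothelial list did with TMM factors (345 to 746 and 379 to 579). The part of other cell types in the gains at *Slit2*, *Ntn4*, *Robo1* and *Robo2* was not tested. The PCM1 sort was aimed at cardiomyocytes, and levels at the markers that are not listed were not analysed here.

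**Figure D4:**
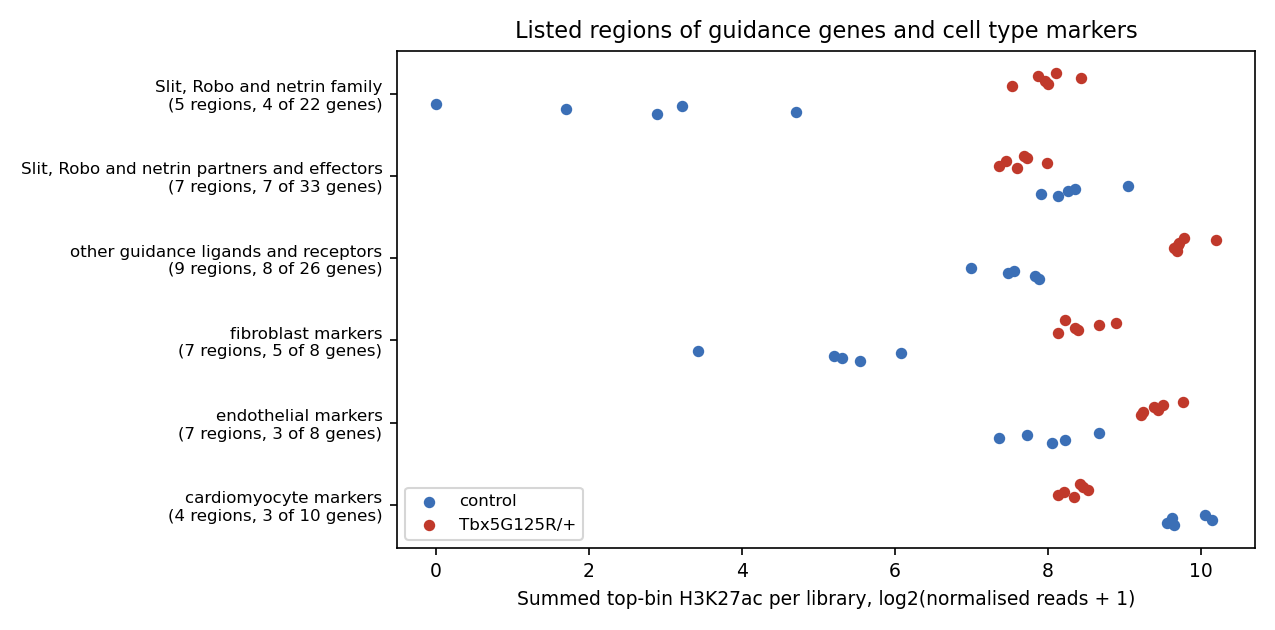
Summed top-bin H3K27ac per library (x axis, log2 of normalised reads plus 1) over the listed regions of each gene list, for 5 control (blue) and 6 *Tbx5*G125R/+ (red) libraries. The Slit, Robo and netrin family, the other guidance genes and the fibroblast and endothelial markers are higher in every *Tbx5*G125R/+ library (not so for the endothelial markers with TMM factors), and the cardiomyocyte markers are lower, whereas the partners and effectors overlap. With TMM factors the sum of the partners and effectors is higher in every control library (516 to 967 against 106 to 159).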

How the data were processed

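H3K27ac CUT&RUN was performed on sorted atrial cardiomyocyte nuclei, and the authors deposited 1 table of differentially acetylated regions on mm10. Per the submitters' processing notes BWA, bedtools and DESeq2 were used, with no version in the sources read here. The deposited signal holds, per library, reads in the top bin over a size factor. Whole reads were recovered for 100% of 18172 values (tolerance 0.05 reads). The authors' own comparison, a log2 fold change per region and an adjusted p-value, also deposited, was not used. Taking the top bin can inflate the difference, and wide regions are represented by 1 bin only.

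Gene bodies came from RefSeq for GRCm38.p6, in which all 4 genes and all listed genes were matched. Recovered reads were fitted with edgeR 4.0.16 (R 4.3.3) without covariates over all listed bins, with the deposited size factors, and calls were adjusted by Benjamini-Hochberg over the highest region number (126854). The fit was tested on simulated data. Alternatives were other scalings, pseudocounts of 0.5, 1 and 5, a filter, DESeq2 1.42.0, single libraries left out and a replicate block. Leaving out the control with most reads, the expected reads, the calls, the list directions under other scalings and the motif search in promoters were added after seeing the data. Ratios pool reads over size factors, with exact binomial intervals. The members and gene lists were chosen with earlier results of these data known. All members are named, other genes if listed, and the 3 closest regions per member by correlation. Nothing in the labels says that libraries with the same number belong together.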

Additional observations from a re-analysis of the deposited data

Results flagged for a closer look

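In 4 of the 9 groups of libraries with any spread at the 5 regions, 1 control library stood far from the others of its group. These were control replicate 4 at *Slit2* (8.31 normalised reads from 6 reads, the other controls at 0), control replicate 3 at *Ntn4* and at region 1 of *Robo2* (1.12 normalised reads each, which is 1 read, the others at 0), and control replicate 2 at *Robo1* (25.2 normalised reads from 37 reads, the next control at 6.39). Chance marks about 1 group in 20 in this way, and where the other controls are at 0 a single read is enough. No *Tbx5*G125R/+ library was marked.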

How the results depend on the processing

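All 100 alternative log2 folds of the 5 regions were positive, and 80 of them moved by less than 1 SD between libraries. With TMM factors the log2 fold was 3.47 at *Slit2*, 4.57 at *Ntn4*, 1.97 at *Robo1* and 6.21 at region 1 of *Robo2*. DESeq2 size factors shifted the median of all bins by 0.15. On the log2(value + 0.5) scale it was 4.91 at *Ntn4*, 5.66 at *Robo1*, 6.47 and 4.52 at regions 1 and 2 of *Robo2*. With 1 added it was 4.08 at *Ntn4* and 5.60 and 3.72 at the *Robo2* regions, and with 5 added 3.23 at *Slit2*, 2.21 at *Ntn4* and 3.55 and 1.99 at the *Robo2* regions. A larger pseudocount lowers such values by construction. Leaving out 1 library gave 4.69 to 9.10 at *Slit2* (highest without control replicate 4), 5.61 to 7.70 at *Ntn4* and 7.23 to 9.32 at region 1 of *Robo2* (both highest without control replicate 3), 3.38 to 5.63 at *Robo1* (highest without control replicate 2) and 7.33 to 7.85 at region 2 of *Robo2*, and 4 to 5 regions without overlap (5 without *Tbx5*G125R/+ replicate 5). With TMM factors, 307 in place of 1209 listed bins had every *Tbx5*G125R/+ library above every control. With the replicate block the log2 fold was 6.24 at *Slit2*. Over the listed bins, deviations of same-numbered libraries from their group means had correlations of -0.145 to -0.0165. No positive correlation was thus seen. Bins chosen for a difference between the genotypes cannot decide whether the libraries were paired. Counting only regions inside a gene body left 2 of the 5 regions, those of *Slit2* and *Ntn4*. Measuring distance to the start site left the same 2. The nearest *Robo1* and *Robo2* start sites lay 719 kb and 534 to 537 kb from their regions, beyond the limit of 100 kb. Other causes of these shifts were not tested. In controls, depth limits levels to those above 2.04 to 5.85 normalised reads per library, the floor of 3 reads.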
